A study of Mus musculus with 2 samples.

Results

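The venous endothelium of the normal mouse mammary gland is described here from 366 cells out of the 4940 endothelial cells (ECs) kept from 1 single-cell RNA library, or 7.41% of them (exact Clopper-Pearson 95% interval 6.69 to 8.17%). Members were selected on measured values. An EC of the normal library belonged to the venous group when at least 3 of the 8 marker genes *Lbp*, *Vwf*, *Bgn*, *Ctnnal1*, *Fgl2*, *Pgm5*, *Ackr1* and *Fxyd6* had at least 1 UMI (unique molecular identifier, 1 counted RNA molecule) and *Glycam1* took under 2% of the UMIs of the cell. The other 4574 normal ECs were the comparison.

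The series holds 9751 cell barcodes in 2 libraries, both of CD45-/CD31+ cells sorted after collagenase digestion. The normal library (NECs) came from pooled mammary glands of C57BL/6 mice 6 to 8 weeks old. The tumor library (TECs) came from tumors grown from E0771, a mouse mammary carcinoma line, in mice whose strain and age the labels do not give. The labels of the normal library also name E0771 and TECs in their tissue and cell type fields, while its title and the study give normal glands. Because each condition had 1 library of pooled tissue, no difference had a replicate check and no p-value is given. All intervals below are exact 95% intervals that cover counting error only.

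Veins and venules collect blood from the capillary bed, and the postcapillary venule is where most leukocytes leave the blood. Venous ECs keep their identity through the nuclear receptor encoded by *Nr2f2*, which holds down Notch signalling, the pathway that drives arterial fate. Venular ECs are known for stores of von Willebrand factor and P-selectin in Weibel-Palade bodies, which they can bring to the surface within minutes, and for slower synthesis of E-selectin and VCAM-1 after cytokine exposure.

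The 8 marker genes chose the cells, so their levels are a description. *Vwf*, which encodes von Willebrand factor, was detected in 353 of the 366 members. *Bgn*, which encodes the matrix proteoglycan biglycan, was detected in 258 and *Ackr1*, the atypical receptor that binds inflammatory chemokines on venules, in 222. *Ctnnal1*, which encodes an alpha-catenin-like protein, was detected in 215 members, and *Lbp*, whose product carries bacterial lipopolysaccharide to CD14, in 201. *Pgm5* was detected in 160, *Fgl2* in 140 and *Fxyd6* in 110 members. No marker was present in all members, and the group was held together by combinations of them. Levels were read as CPM, the UMIs of a gene per 1000000 UMIs summed over a group. By this measure *Vwf* stood at 1406 CPM in members and 84.4 CPM in other NECs, *Ackr1* at 841 and 13.3 CPM, *Bgn* at 463 and 20.8 CPM, and *Lbp* at 253 and 3.09 CPM. In the GENCODE M21 annotation of GRCm38 (mm10), *Lbp* lies at chr2:158306493-158332852 on the plus strand and *Ackr1* at chr1:173331886-173333750 on the minus strand.

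Counting detected genes favours deep cells. Members had a median of 4236 UMIs and 1854 genes, and other NECs 2891.5 UMIs and 1433 genes. Members made up 2.02% of the shallowest 10% of NECs (500 to 1324 UMIs) and 17.4% of the deepest 10% (6236 to 29715 UMIs). When every cell was thinned to 1900 UMIs, which left out 24 members and 1085 other cells as too shallow, 237 of 3831 cells still met the rule (6.19%, 5.44 to 7.0%). Thinning only removes UMIs, so all of these were members by construction. They were 69.3% of the 342 members deep enough to be thinned. Members also had more mitochondrial UMIs, with a median of 5.83% against 3.51% in other NECs, and with a limit of 5% in place of 10% the group held 4.14% of ECs. The part of depth and of mitochondrial RNA in the differences below was not tested.

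**Figure D1:**
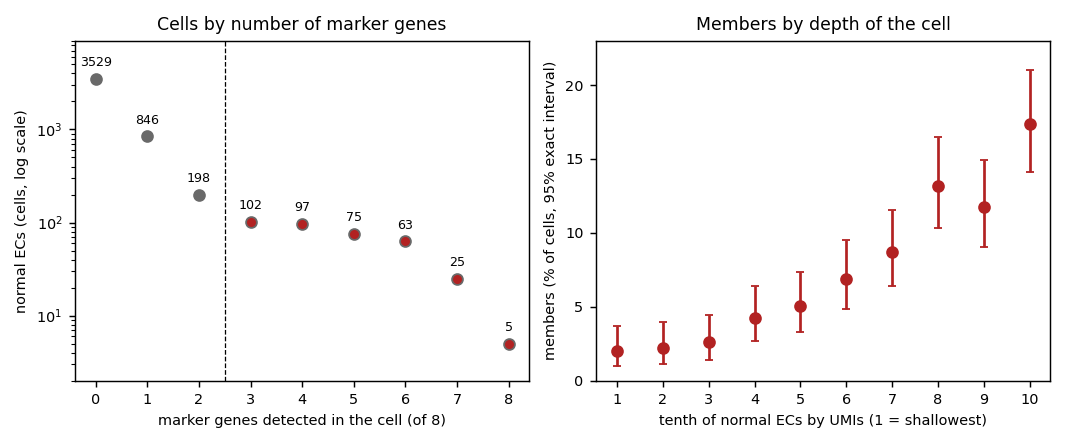
Left, number of normal ECs (log scale) by how many of the 8 marker genes were detected, with the members, right of the dashed line, marked in red. Right, share of members in each 10% of normal ECs ordered by UMIs, with exact 95% intervals, rising from 2.02% to 17.4%.

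The number of marker genes fell steadily from 3529 cells with 0 to 5 cells with all 8, with no gap at the limit of 3. Just outside the limit stood 189 cells with 2 marker genes and *Glycam1* under its own limit, and just inside it 101 cells with 3. *Selp*, which encodes P-selectin and was not used by the rule, stood at 382 CPM in the cells with 2 genes, 470 CPM in those with 3 and 1516 CPM in those with 4. *Nr2f2* stood at 136, 182 and 237 CPM in the same cells. The summed levels of the cells at the limit were thus intermediate. Of the cells with 2, 3 and 4 marker genes, 33.9%, 70.3% and 91.8% lay in the 3 clusters, described below, that held most members. Sums over cells cannot tell a graded series from a mixture of venous and other cells.

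Genes of veins that the rule did not use were compared next, to check the name. The vein list held 18 genes, and 13 of them were at least 2-fold higher in members than in other NECs, with none at least 2-fold lower. Over all 8330 genes tested (mean of the 2 groups at least 10 CPM, rule genes left out), 4.63% were at least 2-fold higher and 5.31% at least 2-fold lower. The median log2 ratio of the vein list was 1.78, against -0.04 over all genes tested. Its summed UMIs gave a log2 ratio of 1.09 (1.06 to 1.11). The markers and the list were both picked as venous genes, so they are not independent of each other.

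*Nr2f2*, the regulator of venous identity, stood at 237 CPM (215 to 261) in members and 44.3 CPM (41.0 to 47.7) in other NECs, a log2 ratio of 2.42. It had a UMI in 55.7% of members and 9.53% of other NECs. At 1900 UMIs a cell the shares were 33.6% and 5.85%. *Il6st*, which encodes the signalling subunit shared by the receptors of the interleukin-6 family, stood at 1105 and 246 CPM (log2 ratio 2.17). *Lrg1*, a secreted glycoprotein of inflamed and venous endothelium, was at 1627 and 454 CPM (1.84), and *Tmem252*, a membrane protein gene found in veins, at 351 and 59.5 CPM (2.56). *Tll1*, a matrix protease gene, had a log2 ratio of 2.91 at a low level, 42.2 against 5.60 CPM.

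The other vein genes were closer to the rest of the gland. *Il1r1*, the interleukin-1 receptor, had a log2 ratio of 1.10, *Nrp2*, a co-receptor of VEGF-C and semaphorins, 1.06, and the prostaglandin transporter *Slco2a1* 1.04. *Ephb4*, the venous receptor of the arterial ligand ephrin-B2, reached 138 CPM in members and 95.3 CPM in other NECs (0.53), under the 2-fold limit. *Plvap*, the protein of fenestral and caveolar diaphragms, and *Aplnr*, the apelin receptor, had log2 ratios of 0.41 and 0.21. *Emcn*, the sialomucin endomucin of veins and capillaries, was the 1 gene of the list with a negative log2 ratio, -0.29. The levels of these genes in capillary ECs alone were not compared.

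The adhesion molecules that slow and stop leukocytes carried the largest differences among familiar venular genes. *Selp* had 2015 UMIs in the 366 members and 698 in the 4574 other cells, or 1118 CPM (1070 to 1168) against 45.0 CPM (41.7 to 48.4). This 24.9-fold ratio came with a UMI in 63.7% of members (58.5 to 68.6%), 3.63% of other NECs and 3.87% of the epithelial barcodes of the same library, which served as a gauge of free RNA (698 barcodes with *Epcam* and no *Cdh5* or *Pecam1*, median 10806 UMIs). At 1900 UMIs a cell the shares were 47.7%, 2.55% and 0.441%, in the same order, so the other NECs also stood above the epithelial barcodes. *Sele*, which encodes E-selectin, was at 196 and 10.2 CPM, a 19.1-fold ratio, with a UMI in 18.9% of members, 1.18% of other NECs and 0.143% of epithelial barcodes. Of its 353 UMIs in members, 281 lay in the 56 members of cluster 14, described below. *Selp* was likewise far higher in that cluster than in cluster 7, the largest set of members. *Selp* (chr1:164115264-164150026) and *Sele* (chr1:164048234-164057677) are neighbours on chromosome 1 of GRCm38. *Vcam1*, the ligand of leukocyte VLA-4 integrin, was at 431 and 43.2 CPM, 9.99-fold, and in 47.5% of members.

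*Icam1*, the ligand of LFA-1, differed less, at 424 CPM in members and 260.2 CPM in other NECs (log2 ratio 0.71). The junctional molecules that leukocytes pass on their way through the wall were near level. *Esam* had a log2 ratio of 0.11, *Jam2* 0.14, *F11r* -0.08, *Icam2* -0.30 and *Cd34* 0.19. *Jam3* was lower in members at 57.7 against 194 CPM (-1.75), as was *Podxl*, a sialomucin of the luminal surface, at 214 against 560 CPM (-1.39). *Vcan*, the matrix proteoglycan versican, was higher (41.1 against 5.15 CPM, 2.99). Of 13 leukocyte recruitment genes tested, 4 were at least 2-fold higher and 2 at least 2-fold lower, and the list had a median log2 ratio of 0.14. Its higher sum, 0.53 (0.49 to 0.56), therefore lay with *Selp*, *Sele*, *Vcam1* and *Vcan*, of which the first 3 also stand in the vein list. It was also uneven among members. The list summed to 8666 CPM in the 56 members of cluster 14, described below. In the members of clusters 7 and 12 it summed to 3833 and 3383 CPM, near the 3313 CPM of other NECs.

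Chemokines showed no common direction. Of 10 tested, 3 were at least 2-fold higher, 2 at least 2-fold lower, and the summed log2 ratio was -0.76 (-0.81 to -0.70). *Cxcl12*, the most abundant chemokine of the other NECs, set that sum, with 322 CPM in members and 2033 CPM in other NECs. *Cxcl16* (60.5 against 16.9 CPM) and *Cxcl10* (529 against 167 CPM), a ligand of CXCR3 on T-cells, were higher in members. Of the 953 *Cxcl10* UMIs of members 61.6% lay in 10 cells, and 696 lay in 56 members that clustered together. *Cxcl9*, another CXCR3 ligand, was level at 152 and 166 CPM. *Ccl2* had a log2 ratio of 1.24 that turned to -2.48 once cells with lymphatic or fibroblast genes were left out.

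**Figure D2:**
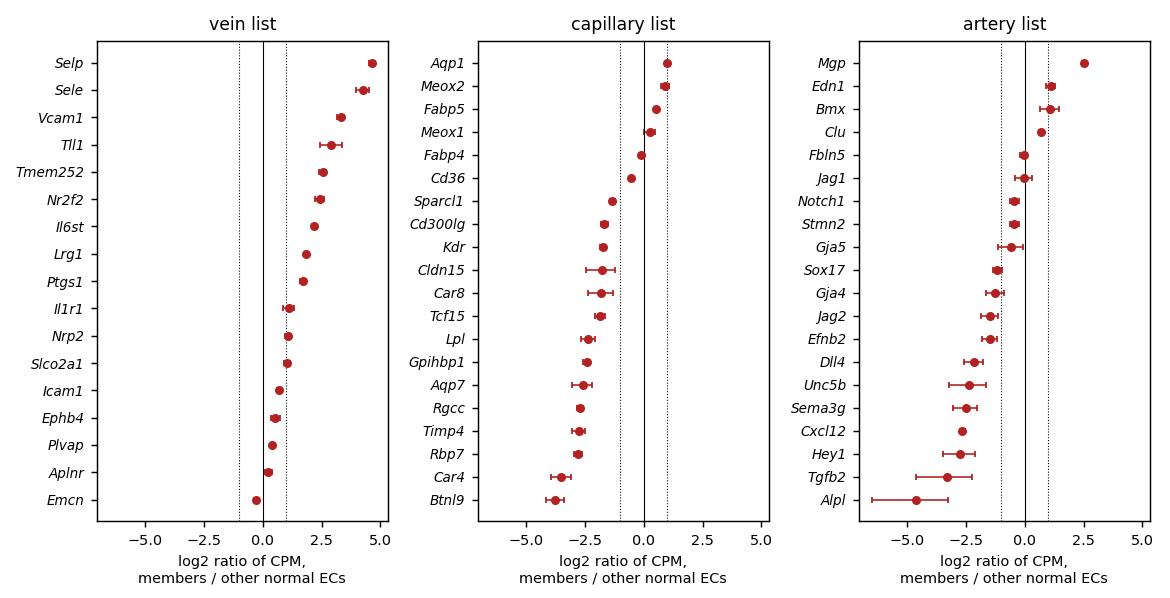
Log2 ratio of CPM in 366 members over 4574 other normal ECs for tested genes of the vein (17 of 18 plotted), capillary and artery lists, with exact 95% intervals for counting error. Solid lines mark equality and dotted lines a 2-fold ratio, and 12 of the 17 vein genes plotted lie right of the upper one while 14 of 20 capillary and 11 of 20 artery genes lie left of the lower one.

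Capillary genes were low in members. Of 20 tested, 14 were at least 2-fold lower and none at least 2-fold higher, and the median log2 ratio was -1.82. *Btnl9*, a butyrophilin-like gene of capillaries, was at 32.2 CPM against 437 CPM, 13.6-fold lower. *Car4*, the carbonic anhydrase on the luminal surface of capillaries, was at 27.2 CPM against 311 CPM. *Rgcc*, which encodes a regulator of the cell cycle, was at 223 CPM against 1470.5 CPM, and *Gpihbp1*, which brings lipoprotein lipase to the capillary lumen, at 244 CPM against 1322 CPM. *Kdr*, the main VEGF receptor, was at 367 CPM against 1234 CPM. At 1900 UMIs a cell *Car4* had a UMI in 3.51% of members, 34.1% of other NECs and 0.734% of epithelial barcodes, so the members stood low but above the free-RNA gauge. Unthinned, the shares of members and epithelial barcodes were 8.47% and 3.72%.

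Not all capillary genes followed. The water channel gene *Aqp1* was at 2805 CPM in members against 1404 CPM, a log2 ratio of 1.00. The transcription factor gene *Meox2* (0.90) and the fatty acid-binding gene *Fabp5* (0.53) were also above equality. *Fabp4*, with 19545 CPM in members and 20947 CPM in other NECs, was nearly level, was present in 84.2% of epithelial barcodes and made up most of the UMIs of the list. The summed log2 ratio of the list was for that reason only -0.34 (-0.36 to -0.33), far from its median.

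Artery genes were low as a list but split among themselves. Of 20 tested, 11 were at least 2-fold lower, 3 at least 2-fold higher, and the median log2 ratio was -1.22. *Hey1*, a Notch target of arteries, was at 11.1 CPM against 74.7 CPM (-2.75), *Sema3g*, an arterial semaphorin, at 19.4 against 112 CPM (-2.53), and the Notch ligand *Dll4* at 29.4 against 133 CPM (-2.18). *Alpl*, which encodes alkaline phosphatase, had 4 UMIs in the members (-4.62). The connexin genes *Gja4* and *Gja5* had log2 ratios of -1.26 and -0.58. Other genes of the list were higher in members. *Mgp*, the inhibitor of calcification and of BMP, was at 1509 CPM in members against 266 CPM (2.50), *Edn1*, which encodes the vasoconstrictor endothelin-1, at 166 against 77.6 CPM (1.10), and the kinase gene *Bmx* at 35.5 against 17.0 CPM (1.06). The summed log2 ratio of the list was -0.33 (-0.36 to -0.29), nearer to equality than its median. *Mgp* made up 1509 of the 3770 CPM of the list in members. *Cxcl12*, also on this list, weighed the other way. The sum reversed to 0.04 when 2 marker genes were enough for a member, and the cause of that reversal was not tested. Of the ECs with 3 or more of 8 arterial genes, 38 were also members.

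Across all genes, 386 of 8330 were at least 2-fold higher in members and 442 at least 2-fold lower. For 274 of the former and 230 of the latter the whole counting interval lay past 2-fold. Among genes of at least 50 CPM in the higher group and at least 20 UMIs, *Comp*, which encodes a pentameric matrix protein first found in cartilage, had the highest ratio, 64.9 CPM against 0.386 CPM (log2 7.39, 6.23 to 8.87). It was present in 55 members and 4 other cells. *Nt5e*, the CD73 enzyme that makes adenosine from AMP, was at 84.3 against 2.58 CPM and reached 25.1% of members against 0.743% of other NECs.

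Among the rest of the 25 genes with the highest ratios were surface receptors and adhesion molecules. *Cadm3*, a cell adhesion molecule best known in neurons, was at 70.5 against 2.83 CPM and *Pcdh7*, a protocadherin, at 72.1 against 5.22 CPM. *Ret*, the receptor tyrosine kinase of the glial-derived neurotrophic factor family, was at 93.2 CPM against 6.51 CPM, and *Cysltr1*, the receptor of cysteinyl leukotrienes, which make venules leak, at 135 CPM against 10.4 CPM and in 35.5% of members against 2.71%. *Amigo2*, a neuronal adhesion gene, was at 118 against 10.5 CPM. The adhesion GPCR gene *Adgrg6* was at 77.1 against 3.74 CPM and the membrane repair gene *Myof* at 148 against 7.99 CPM. Epithelial barcodes held *Adgrg6* at 22.6 CPM and *Myof* at 57.3 CPM, lower than the members and higher than the other NECs.

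Secreted proteins and enzymes were the other large class. *Cytl1*, which encodes a small cytokine-like protein, was at 539 against 38.8 CPM, *Cpe*, carboxypeptidase E of the secretory pathway, at 261 against 25.4 CPM, and *Bmp4*, a morphogen of the TGF-beta family, at 61.0 against 4.90 CPM. *Serping1*, the inhibitor of complement C1, was at 118 against 11.7 CPM, *Nov*, a matricellular protein gene, at 64.9 against 5.60 CPM and *Mmp2*, gelatinase A, at 53.3 against 2.06 CPM. The protease gene *Ctsh* was at 227 against 14.3 CPM and the disulfide isomerase gene *Pdia5* at 155 against 13.5 CPM. Most of these genes were present in between 10 and 50% of members, so none was a mark of every member.

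**Figure D3:**
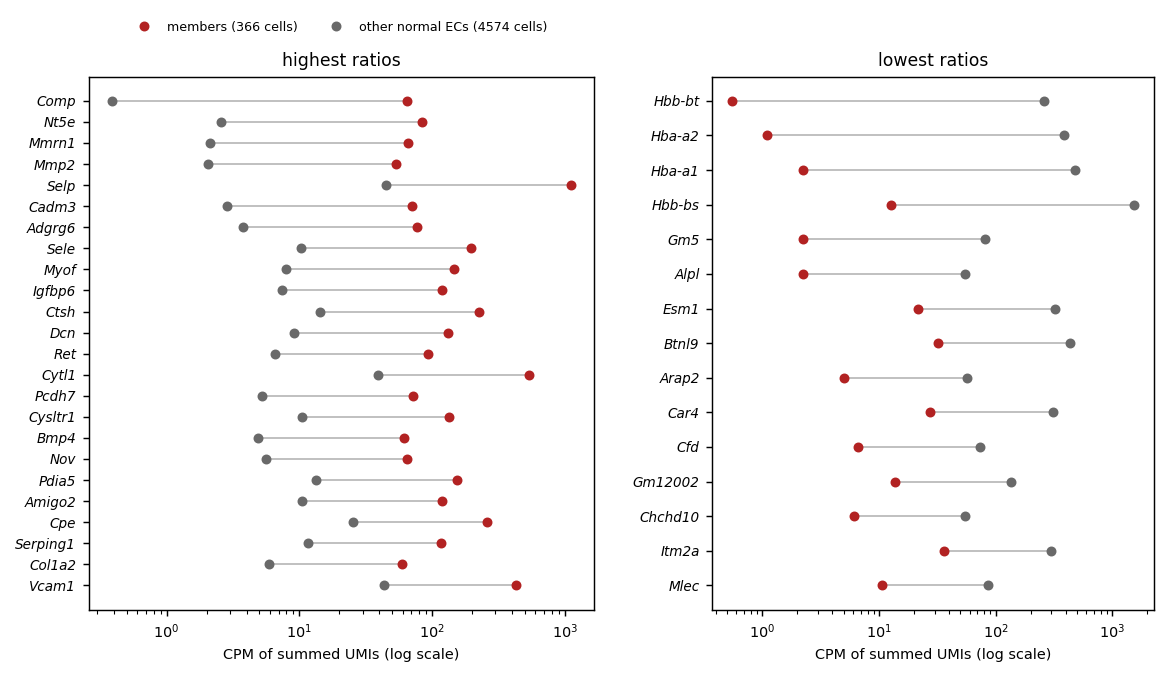
CPM of summed UMIs (log scale) in members (red) and other normal ECs (grey) for 24 of the 25 genes with the highest and the 15 with the lowest ratio among genes that met the level limits. *Mmrn1*, *Igfbp6*, *Dcn* and *Col1a2* came mostly from few members with lymphatic or fibroblast genes, and 10 other normal ECs held 79.3% of the *Hbb-bs* UMIs of their group.

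Of the 15 lowest ratios, 4 belonged to hemoglobin genes. *Hbb-bs* had 23 UMIs in members and 23995 in other NECs, and 79.3% of the latter lay in 10 cells. It had a UMI in 20 members and 187 other NECs. The others included capillary and angiogenic genes. *Esm1*, the proteoglycan endocan of VEGF-exposed ECs, was at 21.6 CPM against 325 CPM (-3.91), and *Itm2a*, a membrane protein gene, at 36.1 CPM against 301 CPM (-3.06), or 17.8 against 298 CPM without the cells with lymphatic or fibroblast genes. *Arap2*, which encodes a GTPase-activating protein, was at 4.99 against 57.3 CPM.

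Further functional lists were read against the same shares of 4.63% and 5.31%. Of 4 prostanoid genes tested, 3 were at least 2-fold higher, including *Ptgs1*, cyclooxygenase-1, at 333 against 102 CPM. The MHC class II genes *H2-Aa*, *H2-Ab1*, *H2-Eb1* and *Cd74* were all at least 2-fold higher, yet low. *Cd74*, the invariant chain, reached 105 CPM and 13.7% of members against 2.01% of other NECs and 3.58% of epithelial barcodes, while *H2-Aa* reached 7.92% of members against 1.05% and 1.29%. The removal of cells with *Ptprc* left 17.2 CPM of the 9 immune genes in members and 18.1 CPM in other NECs, and none of the 9 was abundant enough to be tested.

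Of 29 genes of innate sensing and cytokine receptors tested, 12 were at least 2-fold higher and none at least 2-fold lower, with a median log2 ratio of 0.78. They included the decay-accelerating factor *Cd55* (195 against 34.3 CPM) and the inhibitor of the membrane attack complex *Cd59a* (194 against 66.5 CPM), both protectors of the cell surface from complement. *Cd55* was at 124 against 16.4 CPM without the cells with lymphatic or fibroblast genes. *Il33*, the nuclear alarmin, was at 29.4 against 2.64 CPM. *Cd14* (61.6 against 12.3 CPM) and *Tlr4* (18.9 against 5.73 CPM), the partners of the *Lbp* product in sensing lipopolysaccharide, were higher at low levels, whereas *Ly96*, the third partner, was near level (log2 ratio 0.28). The higher *Cd14* was not a trait of most members. The 56 members of cluster 14, described below, held 103 *Cd14* UMIs, against 7 in those of clusters 7 and 12. In clusters 7 and 12 it was at 5.23 and 8.54 CPM, under the level of other NECs. The complement gene *C3* had a log2 ratio of 2.52 that turned to -0.39 without the cells with lymphatic or fibroblast genes. *Socs3*, the feedback inhibitor of cytokine signalling, was lower by less than 2-fold (-0.81).

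In the coagulation list, 3 of 14 genes were at least 2-fold higher and 2 at least 2-fold lower. *Procr*, the endothelial protein C receptor, was at 258 CPM against 49.8 CPM and in 52.2% of members against 10.2% of other NECs. *Entpd1*, CD39, which breaks down ATP and ADP ahead of *Nt5e*, was at 260.2 against 108 CPM, and *F8*, coagulation factor VIII, at 33.8 against 9.98 CPM. Without the cells with lymphatic or fibroblast genes *F8* was at 16.6 against 7.85 CPM, and its log2 ratio went from 1.76 to 1.08. Thrombomodulin, *Thbd*, was at 236 against 339 CPM (-0.52). Of 14 Weibel-Palade body genes tested, 3 were at least 2-fold higher and 2 lower. *Rab27a*, a GTPase of these granules, was at 31.1 against 9.28 CPM, and *Igfbp7*, one of their abundant cargoes, was lower at 3682 against 7976 CPM (-1.12).

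Of 25 matrix genes tested, 5 were at least 2-fold higher and 5 lower, and the median log2 ratio was -0.26. *Eln*, which encodes elastin, was at 501 CPM in members against 94.9 CPM, with a UMI in 74.3% against 18.9%, and the elastic fibre genes *Fbn1* (128 against 33.5 CPM) and *Fbln2* (641 against 270.3 CPM) were also higher. The basement membrane collagens *Col4a1* (281 against 990 CPM) and *Col4a2* (208 against 681 CPM) were lower, as was the laminin gene *Lamb1* (41.6 against 122 CPM).

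Angiogenic and Notch genes were on the low side. Of 14 angiogenic receptor genes tested, 6 were at least 2-fold lower and 1 higher. *Flt1* and *Nrp1*, receptor and co-receptor of VEGF, had log2 ratios of -1.15 and -1.32, while *Tek*, the angiopoietin receptor, had 0.45. Of 12 Notch genes, 4 were lower and 2 higher, with *Notch4* at 18.3 against 87.2 CPM, and the ligand *Dll1* and the modifier *Lfng* higher, at 103 against 31.8 CPM and 62.7 against 25.6 CPM. In the BMP and TGF-beta list 4 of 17 were lower, including the targets *Id1* (-1.31), *Smad6* (-1.25) and *Smad7* (-1.27), and 1, *Bmp4*, was higher.

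The immediate early list, genes switched on within minutes by handling, stress or cytokines, had 6 of 13 genes at least 2-fold lower and none higher in members, and its summed log2 ratio was -1.02 (-1.048 to -0.996). *Jun* was at 724 against 1858 CPM, *Fos* at 1200.2 against 2283 CPM, and the heat-shock gene *Hspa1a* at 54.9 against 346 CPM. Of 16 interferon response genes, 5 were at least 2-fold lower and 1, *Cxcl10*, higher. *Rsad2* was at 53.8 against 377 CPM, and *Irf8*, an interferon-linked transcription factor, was at 65.5 against 32.9 CPM (0.99). In the shear response list 2 of 10 were lower and 1, *Cyp1b1*, higher, with *Klf2* at -0.69 and *Nos3* at 0.83. *Cyp1b1* rested on few cells, and went from 30.5 to 4.15 CPM in members and from 5.02 to 0.465 CPM in other NECs without the cells with lymphatic or fibroblast genes. *Dnmt1*, the DNA methyltransferase at the centre of the study, was level, at 29.4 CPM (22.0 to 38.5) in members and 28.9 CPM (26.3 to 31.7) in other NECs. *Top2a*, a gene of dividing cells, was detected in 1.91% of members and 1.40% of other NECs.

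Markers of other cell types were read in the same way. Lymphatic ECs carry CD31 too and may make *Fgl2* and *Fxyd6*. At least 2 of 8 lymphatic genes were found in 15 members and 36 other NECs, and at least 3 in 9 members. *Lyve1*, the hyaluronan receptor of lymphatics, had 107 UMIs in 9 members, and *Mmrn1* had 118 UMIs in 12. Without the 17 members and the other NECs that had at least 2 lymphatic or at least 2 fibroblast genes, the log2 ratio of *Mmrn1* went from 4.95 to 0.83, that of the summed lymphatic list from 0.59 to -0.03, and that of the summed fibroblast list from 3.27 to 0.37. Leaving out cells by genes of these same lists lowers such sums by design. Of the listed genes 3 of 5 lymphatic and 6 of 6 fibroblast genes tested were at least 2-fold higher before that step. Fibroblast genes came from still fewer cells, since 97.5% of the 236 *Dcn* UMIs of members lay in 10 cells and at least 2 fibroblast genes were found in 2 members. Most of the differences did not rest on these cells, because 361 of the 386 higher genes stayed at least 2-fold higher without them, and *Comp* kept 112 of its 117 UMIs.

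*Prox1*, the transcription factor that sets lymphatic fate and is also known from venous valves, was an exception among lymphatic genes. Its level was 32.7 CPM in members and 4.90 CPM in other NECs, and without the lymphatic and fibroblast cells it was still 17.2 against 0.798 CPM (log2 ratio 4.43). It had a UMI in 4.64% of all members (2.73 to 7.33%), or 17 cells, and in 2.15% of epithelial barcodes. The difference without the lymphatic and fibroblast cells rested on 17 members at most.

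Among mural genes *Tagln*, which encodes an actin-binding protein of smooth muscle, stood apart at 423 CPM in members against 47.9 CPM (log2 ratio 3.14) and in 41.5% of members. The other defining mural genes were not higher. *Rgs5* was at 34.4 against 115 CPM, *Acta2* at 17.8 against 32.2 CPM and *Pdgfrb* at 1.66 against 10.6 CPM. Of the 11 mural genes 3 passed the level limit, and at least 3 of the 11 were found in 3 members and 84 other NECs. Of 5 epithelial and 6 salivary genes tested, none was 2-fold apart. Salivary genes summed to 1408 CPM in members and 2319 CPM in other NECs, and *Bpifa2*, a salivary secretory product, had a UMI in 82.2% and 82.6% of them, so salivary RNA was found in most ECs of the library, members or not.

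The ECs were then clustered without the 8 markers or the other genes of the rule, to see where members lay. Clusters were numbered from 0 by size and are not those of the study. Of 17 clusters, clusters 7, 12 and 14 held 324 of the 366 members (88.5%, 84.8 to 91.6%), and members were 72.3% of the 448 cells in these 3 clusters. In the other 14 clusters the share of members ran from 0 to 16.7%, the highest being 5 of the 30 cells of cluster 16, which led with cell division genes such as *Mki67*. The 42 members outside were spread over 12 clusters, 11 of them in cluster 3, which led with the arterial genes *Gja5* and *Bmx*, and 30 of the 42 had exactly 3 marker genes. Among the 124 cells of the 3 clusters that were no members the median depth was 3878.5 UMIs, against 4075.5 UMIs for the members there.

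**Figure D4:**
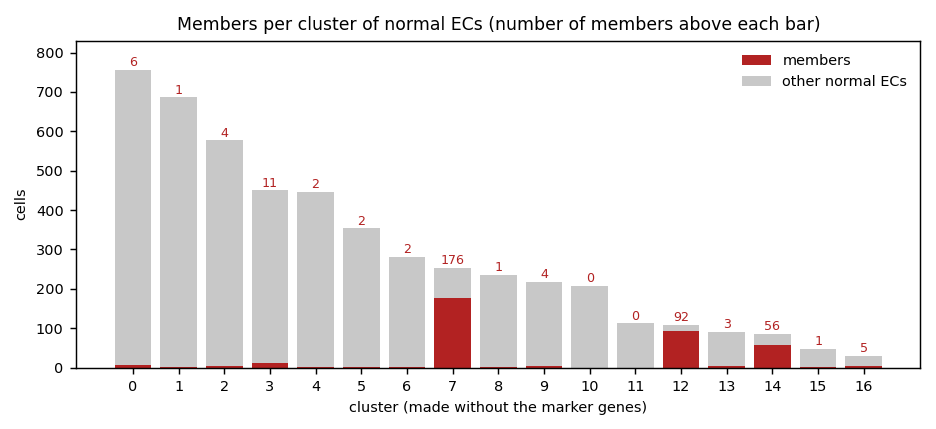
Cells in each of the 17 clusters of normal ECs, made without the marker genes, with members in red and the number of members above each bar. Clusters 7, 12 and 14 hold 176, 92 and 56 members, and no other cluster holds more than 11.

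Members thus fell into 3 sets with different leading genes. The clusters were made from these genes, so their levels describe the sets and test nothing. The largest, 176 members in cluster 7, held *Ackr1* at 1081 CPM (81.8% of its members) and *Selp* at 484 CPM, and was marked against the members of clusters 12 and 14 by *Tagln* (749 against 217 CPM), *Ptn*, the heparin-binding growth factor pleiotrophin (345 against 109 CPM), *Rasa4*, a Ras inhibitor (592 against 211 CPM), *Aplnr* (293 against 104 CPM) and *Cysltr1* (207 against 86.6 CPM). Cluster 7 held 573 of the 762 *Tagln* UMIs of all members. These differences were gradual, and the 12 genes that led cluster 7 had log2 ratios between 1.09 and 1.79.

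Cluster 12, with 92 members, was set off far more sharply. *Ackr1* was at 176 CPM there, in 21.7% of its members, whereas *Bgn* (996 CPM) and *Vwf* (3008 CPM) were at their highest. *Cytl1* stood at 2046 CPM against 59.6 CPM in the members of clusters 7 and 14, *Cpe* at 1172 against 39.1 CPM, *Mgp* at 3184 against 281 CPM, *Comp* at 267 against 15.3 CPM and ceruloplasmin, *Cp*, the copper-carrying ferroxidase, at 429.6 against 25.5 CPM. *Htr2b*, a serotonin receptor gene, at 154 CPM, had a UMI in 38.0% of these members and in none of the 176 members of cluster 7, which allows a share of up to 1.70%, nor in the 56 of cluster 14, which allows up to 5.36%. Its level was at least 39.2-fold higher than in cluster 7, taking 3 UMIs over the whole cluster as the floor. *Bmp4* (168 CPM), *Edn1* (324 CPM), *Clu* (1593 CPM) and *Procr* (615 CPM) were also highest in cluster 12. The artery list summed to 6499 CPM there, compared with 2116 in cluster 7 and 1633 in cluster 14, and cluster 12 held 2284 of the 6794 artery-list UMIs of all members. Most of these 2284 UMIs came from 2 genes, 1119 from *Mgp* and 560 from *Clu*. *Gja5* itself was at 0 in cluster 12.

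Cluster 12 also held 13 of the cells with lymphatic or fibroblast genes. Without them *Cytl1* stood at 2494 CPM, *Comp* at 318 CPM and *Mgp* at 3925 CPM, all higher than with them. *Clu* went from 1593 to 771 CPM, still above the 572 and 473 CPM of clusters 7 and 14, and *Prox1* from 91.1 to 14.3 CPM. The lymphatic list, whose genes helped choose the cells left out, fell from 1434 to 53.5 CPM.

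Cluster 14, with 56 members, had the deepest cells, of 6801 UMIs in the median, against 3961 in cluster 7 and 3289.5 in cluster 12, and had a lower median mitochondrial share, 3.89% against 6.26 and 6.11%. It held *Selp* at 3641 CPM (96.4% of its members), *Sele* at 685 CPM (73.2%), *Vcam1* at 987 CPM and *Icam1* at 897 CPM. Beside these it was marked by secreted signals of inflammation. *Il6*, which encodes interleukin-6, was at 829 CPM against 12.5 CPM in the members of clusters 7 and 12, *Csf3*, the granulocyte colony-stimulating factor, at 463 against 1.79 CPM, *Cxcl10* was at 1696 CPM and *Cxcl9* at 499.6 CPM. *Il6* or *Csf3* was detected in 41 of the 56 members (73.2%, 59.7 to 84.2%), in 8 of the 176 of cluster 7 and in 3 of the 92 of cluster 12. *Nfkbiz*, a nuclear co-regulator of NF-kB targets, was at 1175 against 78.8 CPM, *Rcan1*, an inhibitor of calcineurin, at 1528 against 45.7 CPM, and *Cd14* at 251 against 6.27 CPM.

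The immediate early list, low in members as a whole, summed to 15751 CPM among the members of cluster 14 but to 2166 among those of cluster 7 and 4308 among those of cluster 12, so the cluster also carried the genes that tissue digestion is known to switch on. Other NECs stood at 13892 CPM. At 1900 UMIs a cell the 3 clusters kept these values at 16182, 1994 and 3614 CPM. Whether the digestion had a part in the levels of cluster 14 was not tested. Outside the members *Il6* had 947 UMIs in 272 other NECs and *Csf3* 460 UMIs in 87, so neither gene was found in members alone.

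**Figure D5:**
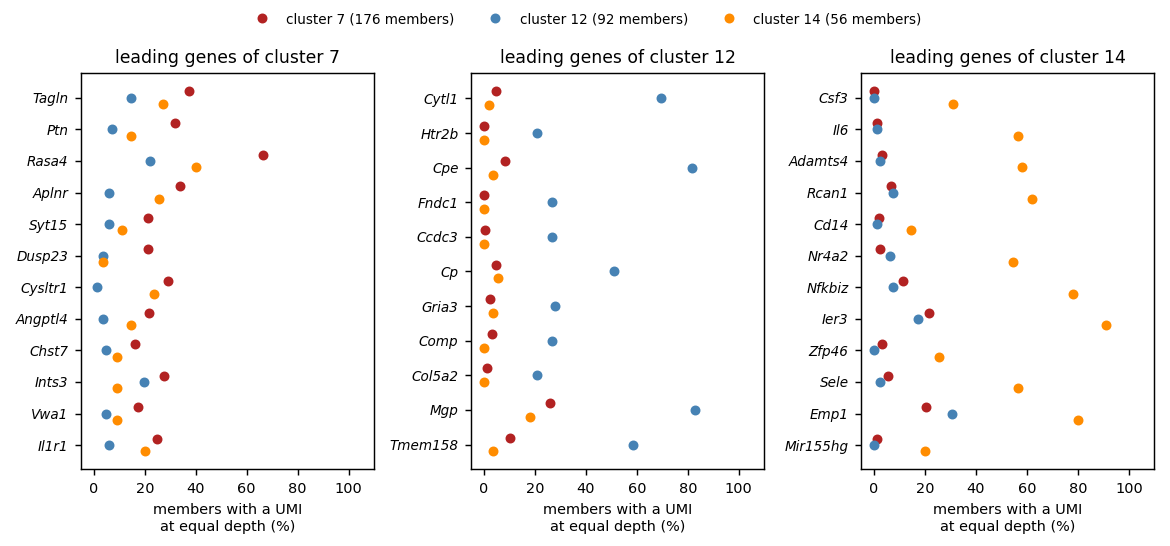
Share of members with a UMI at 1900 UMIs a cell for 12 leading genes of cluster 7 (left), 11 of cluster 12 (middle) and 12 of cluster 14 (right), each shown in all 3 clusters. The genes of cluster 7 overlap with cluster 14 in share, while those of clusters 12 and 14 are set apart, as with *Htr2b*, at 0 in clusters 7 and 14.

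A stretch before the *Il6* gene is shown since this cytokine was among the leading genes of cluster 14 and NF-kB is the textbook regulator of cytokine and adhesion genes in ECs. Of the 36 leading genes of the 3 clusters, 20 had a RefSeq promoter (GRCm38.p6, 250 bases before to 50 after the start), and the NF-kB-like letters GGGNNTTNCC were searched on both strands. They occurred in 1 of 8 promoters of cluster 14, that of *Il6*, in none of 7 of cluster 7 and none of 5 of cluster 12, and in 4.79% of all 32851 promoters of that length. The match, in capitals, starts 44 bases before the gene start and lies on its strand, at chr5:30013050-30013099 with 20 bases on either side.
Il6: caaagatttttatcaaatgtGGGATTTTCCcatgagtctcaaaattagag
The match describes these letters and is not evidence of binding, and nothing follows for the promoters without it.

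Cells were also ordered by the number of marker genes at equal depth. Some single genes changed steadily along this order, while the vein and artery lists did not. With 0, 1, 2, 3 and at least 4 markers among 1900 UMIs, *Nr2f2* stood at 30.0, 62.2, 143, 282 and 316 CPM, and *Il6st* at 215, 299.5, 743, 1250 and 1621 CPM. The capillary gene *Rgcc* went the other way, from 1780.3 CPM with 0 to 889, 392, 79.9 and 63.2 CPM, and *Car4* from 388 CPM to 208, 57.1, 18.8 and 16.8 CPM. *Selp* was at 17.4, 94.7, 612, 1142 and 935 CPM, so it did not increase beyond 3 markers. In the same order the vein list summed to 5080, 3606, 7262, 11053 and 12522 CPM, lowest with 1 marker. The artery list summed to 4249, 6169, 7674, 3567 and 3983 CPM, highest with 2 markers. Adhesion genes were found together in the same members only in part. Among 161 members with *Selp* at equal depth 22.4% also had *Sele* and 42.9% *Vcam1*. Among 165 members without it the shares were 4.2 and 24.8%, while *Cytl1* was in 14.9% of the former and 33.3% of the latter. These cells were most but not all of the 342 members deep enough to be thinned.

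Members were set beside the venules richest in *Glycam1*, the high endothelial venules that serve lymphocyte entry. This group of 36 NECs, median 11744 UMIs, had *Glycam1* at 2% of UMIs or more, and 1 of these cells had 3 of the markers. *Selp* was lower there, at 209.6 CPM against 1118 CPM in members (log2 ratio of members over these cells 2.42), as were *Nr2f2* (76.6 CPM, 1.63) and *Il6st* (496 CPM, 1.16). *Lrg1* was higher in the high endothelial cells, 3272 CPM (-1.01), and *Icam1* close, 507 CPM (-0.26). The genes of the high endothelial list named here were lower in members than in these cells. *Ccl21a*, the chemokine of lymphocyte homing, was at 372 CPM against 9310 CPM, *Ubd* at 46.6 against 5005 CPM, and the fucosyltransferase gene *Fut7* at 6.66 against 406 CPM. The *Ccl21a* of members came from few cells. A UMI was found in 2.84, 6.52 and 3.57% of the members of clusters 7, 12 and 14. Leaving out cells with lymphatic or fibroblast genes took its level among the cluster 12 members from 555 to 7.14 CPM. Its spread over members outside these clusters was not tested. The high endothelial list had none of 6 tested genes at least 2-fold higher in members than in all other NECs, and 2 lower.

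The 962 arterial ECs were picked by 3 or more of 8 arterial genes and held no members. The 38 members that also had 3 or more of these genes were left out of them. In the arterial cells *Nr2f2* was at 21.7 CPM (log2 ratio of members over arterial cells 3.45), *Selp* at 26.4 CPM (5.41) and *Ptgs1* at 35.3 CPM (3.24). *Clu*, which encodes the chaperone clusterin, was nearly shared, at 736 CPM in arterial cells and 802 CPM in members (0.12), and *Mgp* was high in both, at 964 and 1509 CPM (0.65). *Eln* was higher in members than in arterial cells (1.45).

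The same rule was applied to the tumor library, where it picked 13 of 312 ECs (4.17%, 2.24 to 7.02%). Those ECs were much deeper, with a median of 19297.5 UMIs against 2976.5 in NECs. At 1900 UMIs a cell, 2 of 289 TECs met the rule (0.692%, 0.0839 to 2.48%), against 237 of 3831 NECs (6.19%). Over all ECs of each library, *Ackr1* was at 4.0 CPM (2.79 to 5.56) in TECs and 99.4 CPM (94.8 to 104) in NECs, *Lbp* at 0.914 against 29.1 CPM, *Selp* at 16.5 against 157 CPM and *Nr2f2* at 34.6 against 64.3 CPM. *Vwf* was less far apart, 86.0 against 222 CPM, and *Vcam1* was the reverse, 137 CPM in TECs and 83.5 CPM in NECs. With 1 library each, tissue, preparation, depth and tumor cannot be told apart in these values, and fewer cells of a type in a library cannot be told from less RNA per cell in the sums over all ECs.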

How the data were processed

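The deposited tables held raw UMI counts per gene and barcode, made by the authors with Cell Ranger on mm10 and, per the labels, handled in Seurat; the Cell Ranger version is not given in the sources used here. The normal table had 17641 genes and 9047 barcodes (500 to 327449 UMIs, median 2973), and the tumor library had 704 barcodes. Cells with at least 200 genes, under 10% mitochondrial UMIs, no UMI of *Ptprc*, *Myh11*, *Epcam* or *Cspg4* and a UMI of *Cdh5* or *Pecam1* were kept (4940 and 312). The libraries shared 3 barcodes, none in a member. No doublet caller was run.

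Counts were summed per group and given as CPM with exact Poisson intervals. Ratios of sums had exact conditional binomial intervals and shares exact Clopper-Pearson intervals (95%). Cells were not treated as replicates, so no test was run. Genes with a mean of the 2 groups of at least 10 CPM were compared at 2-fold. Cells were thinned at random to 1900 UMIs for equal depth. Clustering used Seurat 5.3.0 (4000 variable genes, 20 components, resolution 0.8) without the rule genes. Other steps used Python 3.11.15 and scipy 1.17.1. Interval code was tested on simulated data.

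Named genes were those of 24 lists, the 25 highest and 15 lowest ratios (at least 50 CPM in the higher group and 20 UMIs), *Dnmt1*, *Top2a*, *Cxcl9*, *Cxcl10* and *Irf8*, and the 12 genes leading each of the 3 clusters. A gene among these is not reported here; list counts and sums include it, figures do not. Rank order of the last, and the naming of *Prox1*, followed from their values. The members and the lists were chosen with earlier results of these data known. GENCODE M21 held 98.8% of the symbols, and coordinates are from it.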

Additional observations from a re-analysis of the deposited data

How the results depend on the processing

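The count of genes at least 2-fold apart stayed within 1.5 times its value under all 17 alternatives run (332 to 499 higher, 304 to 586 lower). The share of members and the summed log2 ratios moved by more than their counting intervals under many of them, in the order vein, capillary, artery and leukocyte recruitment below. With at least 2 marker genes the share was 11.2% and the ratios 0.84, -0.27, 0.0447 and 0.45, the artery value being the 1 reversal. With at least 4 they were 5.36% and 1.20, -0.30, -0.41 and 0.64, with markers counted at equal depth 6.19% and 1.21, -0.26, -0.38 and 0.66, and in the 3 clusters only 6.56% and 1.21, -0.26, -0.66 and 0.60. Without *Bgn* the share was 6.42% and the vein, artery and leukocyte ratios 1.15, -0.49 and 0.58. Without *Fxyd6* and *Fgl2* the vein, capillary and artery ratios were 1.13, -0.28 and -0.54. Under 5% mitochondrial UMIs the share was 4.14%, the capillary ratio -0.42 and the leukocyte ratio 0.66. With no cell removed for the 4 genes the 4 ratios were 1.15, -0.21, -0.21 and 0.62, as a mean over cells 1.29, -0.50, -0.16 and 0.40, and with UMIs thinned after the choice 1.14, -0.39, -0.21 and 0.39. Against cells without a marker gene the first 3 were 1.02, -0.40 and -0.20. Without the 5% of cells with most UMIs the vein, artery and leukocyte ratios were 1.14, -0.15 and 0.40. The vein and capillary ratios were 1.12 and -0.31 without lymphatic cells and 1.13 and -0.30 without lymphatic and fibroblast cells, and the capillary ratio was -0.32 with both *Cdh5* and *Pecam1*. The causes were not tested. The last 2 alternatives on lymphatic and fibroblast cells and on the 3 clusters were chosen after seeing the data. Values from 1 library with cells of low depth limit genes under about 10 CPM. No paired analysis was possible because each condition had 1 library.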
